A study of Mus musculus with 15 samples.

Results

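The genes described here are regulators of uterine receptivity, the state in which the uterus accepts an embryo, and of the signals that pass between its epithelium and its stroma. They were *Ihh*, *Ptch1*, *Nr2f2*, *Hand2*, *Msx1*, *Msx2*, *Gata2*, *Lif*, *Lifr*, and *Foxa2*, chosen by name as the probes whose gene name on the array equals 1 of these 10 symbols. Of the 10 genes, 9 had such a probe (19 probes, 64 spots), out of 27962 distinct gene names on the array. No probe carried the name *Lif*, so it is not among the 9 genes. A probe described as a leukemia inhibitory factor cDNA is given at the end. All 19 probes were well above background on all 15 arrays.

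RNA came from uteri of ovariectomized adult mice (10 weeks or older), rested after surgery and given 1 intraperitoneal injection of 100 μL. The 5 groups of 3 arrays each were saline vehicle collected at 24 hr, 250 ng estradiol (E2) at 2 hr, 250 ng estriol (E3) at 2 hr, E2 at 24 hr, and E3 at 24 hr. E3 is a weak estrogen that differs from E2 by 1 further hydroxyl group on the steroid. All groups shared the ovariectomy, which removes the ovarian source of estrogen and progesterone. The E2 2-hr mice were WT for *Esr1* and of the C57bl6/Jx129 strain, and their arrays were read on another scanner and day. The other groups were C57bl6/J, with no *Esr1* genotype in their labels, and the study calls its E2 and E3 animals WT. The strain, the scanner, and the E2 2-hr treatment cannot be told apart, and the 24-hr saline arrays were the only vehicle for both times. The labels describe uteri homogenized singly, whereas the methods describe pooled tissue, so p-values measure the spread between these samples.

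In the uterus, epithelial cells make Indian hedgehog (*Ihh*), which acts on the stroma through the receptor patched 1 (*Ptch1*), itself a target gene of the pathway. The stroma answers through the nuclear receptor COUP-TFII (*Nr2f2*) and the transcription factor *Hand2*, and *Hand2* restrains the fibroblast growth factors that drive the epithelium to divide. Progesterone, through its receptor and *Gata2*, is known to drive *Ihh*, while estrogen is known to induce the cytokine *Lif* in the glands. *Lif* acts through its receptor *Lifr*, the homeobox genes *Msx1* and *Msx2* are known to hold the uterus in its receptive state, and *Foxa2* is needed for glands to form.

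Values are log2 of the spot intensity relative to the array's 75th percentile, so a step of 1 is a 2-fold difference and 0 is the intensity of that percentile. They compare arrays for 1 probe and do not rank different probes. A difference was called when limma's p-value was below 0.001 and the change at least 2-fold, and adjusted p-values are Benjamini-Hochberg values over the 34751 probes tested. Each gene is given by its brightest probe. The positions are those of the array annotation on the mouse build mm7, for which no exon annotation was used here. They were chr1:75185454-75185513 for *Ihh*, chr13:61331255-61331314 for *Ptch1*, chr7:66209217-66209276 for *Nr2f2*, chr8:55705289-55706648 for *Hand2*, chr5:36902462-36902521 for *Msx1*, chr13:52503611-52503670 for *Msx2*, chr6:88281934-88281993 for *Gata2*, chr15:7011508-7012314 for *Lifr*, and chr2:147783819-147783878 for *Foxa2*. The *Hand2* and *Lifr* positions span 1360 and 807 bases for a probe of 60 bases. Whether these probes cross a splice junction was not checked.

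The arrays had 75th percentiles of 2989 to 4412 intensity units, with 77.7% to 81.6% of probes well above background. All 7 epithelial, all 7 stromal, and all 7 smooth muscle markers were well above background on every array, as the label uterus implies. Summed over 14 liver transcripts, intensity relative to the 75th percentile was 8.37 to 28.1 on the saline arrays (highest on replicate 1), 2.36 to 5.06 on the E3 2-hr arrays, 0.606 to 0.788 on the E2 2-hr arrays, 0.564 to 0.622 on the E2 24-hr arrays, and 0.614 to 1.70 on the E3 24-hr arrays. Summed over 10 exocrine pancreas transcripts it was 723 and 13.6 on E3 2-hr replicates 2 and 3 and 324 and 6.0 on E2 24-hr replicates 2 and 3, against 0.323 to 0.703 on the other arrays. Calls of the 9 genes, and counts of the gene lists against saline, that moved by over 1.5 times or were lost without these 4 arrays are given beside the result, and the E3 2-hr and E2 24-hr groups are then 1 array each, assumed to vary like the arrays of the other groups.

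**Figure D1:**
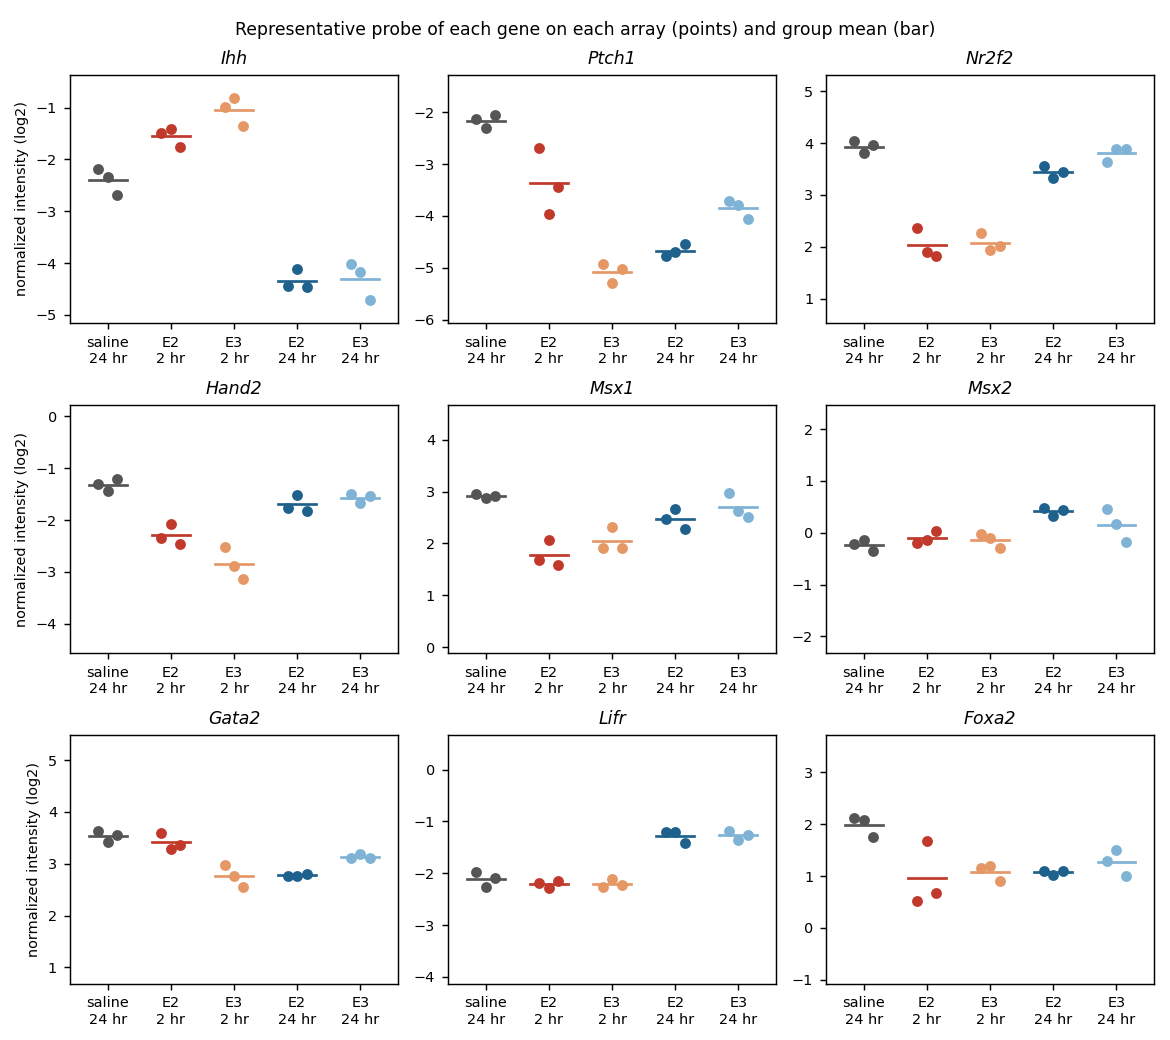
Normalized intensity (log2, relative to the array's 75th percentile) of the brightest probe of 9 genes on each of the 15 arrays, with a bar at the mean of each group of 3. Each panel spans the same log2 range. *Ihh* is highest at 2 hr and lowest at 24 hr, *Nr2f2* and *Hand2* are lowest at 2 hr, and *Lifr* is highest at 24 hr.

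At 2 hr, *Ptch1* and *Nr2f2* decreased after both estrogens, *Msx1* decreased after E2, *Hand2* decreased after E3, and *Ihh* increased after E3. Of the 9 genes, 3 were called after E2, all lower. Over all tested probes 21.2% were called in that comparison, 10.6% higher and 10.7% lower. After E3, 4 of the 9 were called, 1 higher and 3 lower, beside 13.8% of all probes, 4.68% higher and 9.11% lower. The median difference of the 9 genes from saline was -0.97 after E2 and -0.87 after E3, beside -0.08 and -0.11 over all tested probes. At 24 hr the called genes were *Ihh* and *Ptch1* alone, both lower after E2 and both lower after E3. Over all tested probes 18.1% were called at 24 hr of E2 (6.94% higher, 11.1% lower) and 3.81% at 24 hr of E3 (1.85% higher, 1.96% lower). The median difference of the 9 genes was then -0.49 after E2 and -0.25 after E3, beside -0.06 and -0.01 over all probes. In bulk tissue, fewer cells of a type and less RNA per cell cannot be told apart.

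Counted without a minimum change, at an adjusted p below 0.05, the 9 genes gave 6 differences at 2 hr of E2, 7 at 2 hr of E3, 9 at 24 hr of E2, and 5 at 24 hr of E3. At 24 hr of E2, 5 in place of 9 passed that rule without the 4 arrays high in pancreas transcripts, since *Nr2f2*, *Hand2*, *Msx1*, and *Foxa2* then missed it (adjusted p = 0.222, 0.0623, 0.145, and 0.124 by limma). Over all tested probes 61.9%, 49.7%, 61.4%, and 34.1% passed that rule. Arrays of the treated and saline groups did not overlap for 6, 7, 9, and 6 of the 9 genes in the same order, beside 67.2%, 58.1%, 68.9%, and 51.5% of all probes that could be compared.

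**Figure D2:**
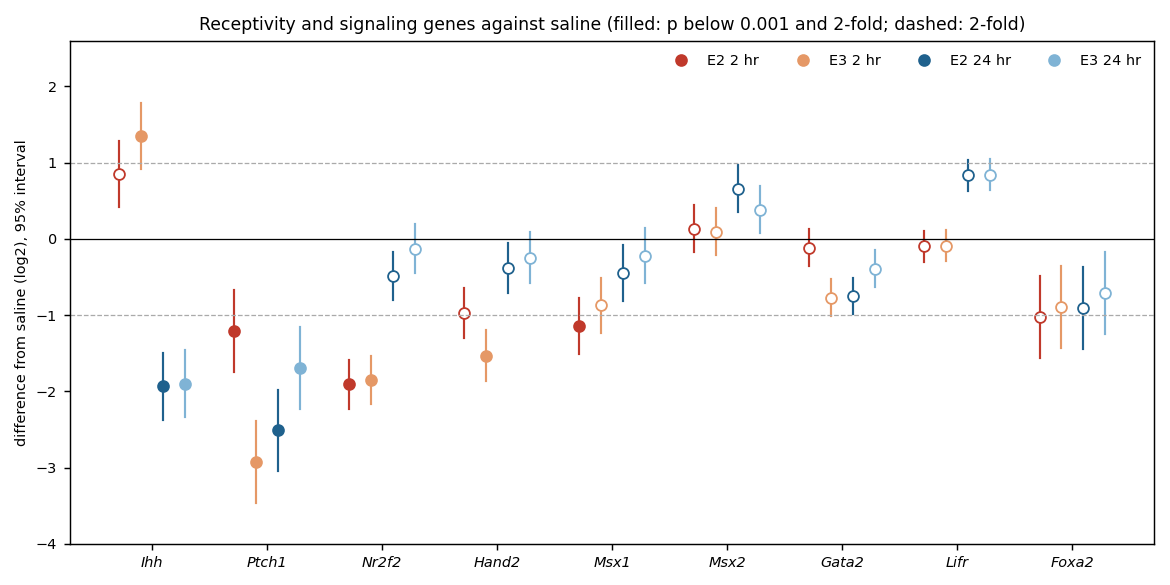
Difference from saline (log2, brightest probe, n = 3 arrays a group) of 9 genes after E2 and E3 at 2 and 24 hr. Bars are 95% intervals, filled points are called, and dashed lines mark 2-fold. *Ihh* lies above 0 at 2 hr and below -1 at 24 hr, and *Ptch1* lies below -1 in all 4 comparisons.

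*Ihh*, the hedgehog ligand of the epithelium, measured -2.19, -2.35, and -2.68 on the saline arrays, -1.48, -1.41, and -1.76 after 2 hr of E2, -0.99, -0.82, and -1.35 after 2 hr of E3, -4.45, -4.11, and -4.46 after 24 hr of E2, and -4.02, -4.18, and -4.71 after 24 hr of E3. Every 2-hr array was above every saline array, and every 24-hr array was below. *Ihh* increased 2.55-fold at 2 hr of E3 (log2 difference 1.35 ± 0.20, SE; adjusted p = 0.000135). After 2 hr of E2 the difference was 0.85 ± 0.20 (1.81-fold), with an adjusted p = 0.00267 by limma, and missed both limits of the call. By 24 hr *Ihh* had decreased 3.82-fold after E2 (-1.93 ± 0.20, adjusted p = 6.77e-06) and 3.73-fold after E3 (-1.90 ± 0.20, adjusted p = 0.00011). Between the times it decreased 6.90-fold under E2 and 9.52-fold under E3 (-2.79 and -3.25). The groups ran, from low to high, E2 24 hr and E3 24 hr (which overlapped), saline, E2 2 hr, and E3 2 hr.

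A separate *Ihh* probe (chr1:75187527-75187586) gave the same calls, 1.75 at 2 hr of E3, -1.72 at 24 hr of E2, and -1.66 at 24 hr of E3. On it the arrays of E3 at 2 hr, -0.78, -0.98, and -1.5, were all above those of E2 at 2 hr, -2.16, -1.76, and -1.94. That E3 minus E2 difference was 0.87 (95% interval 0.44 to 1.29, adjusted p = 0.00372), short of 2-fold. With normexp background correction *Ihh* was called in none of its comparisons with saline, at 1.30 (2 hr of E3), -1.61 (24 hr of E2), and -0.98 (24 hr of E3). That correction moved the median of all probes at 24 hr of E3 from -0.01 to 0.32. Without the 4 arrays high in pancreas transcripts, the rise at 2 hr of E3 was 1.41 (adjusted p = 0.00764) and was no longer called.

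*Ptch1* went down at every time. On the saline arrays it measured -2.14, -2.30, and -2.05. After 2 hr of E2 it measured -2.69, -3.97, and -3.45, after 2 hr of E3 -4.94, -5.30, and -5.03, after 24 hr of E2 -4.78, -4.69, and -4.55, and after 24 hr of E3 -3.70, -3.79, and -4.07. No treated array reached the lowest saline array. The decrease was 2.31-fold at 2 hr of E2 (-1.21 ± 0.25, adjusted p = 0.000956), 7.61-fold at 2 hr of E3 (-2.93 ± 0.25, adjusted p = 1.53e-06), 5.71-fold at 24 hr of E2 (-2.51 ± 0.25, adjusted p = 4.37e-06), and 3.23-fold at 24 hr of E3 (-1.69 ± 0.25, adjusted p = 0.000471). From low to high the groups ran E3 2 hr, E2 24 hr, E3 24 hr, E2 2 hr, and saline, and the E3 24-hr and E2 2-hr arrays overlapped.

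The *Ptch1* probes disagreed on the E2 2-hr arrays. The probe above, read from 1 spot, has a GC content of 21.7%. A dimmer probe at chr13:61333864-61333923, averaged over 10 spots and with a GC content of 50%, measured -3.51, -3.48, and -3.21 on the saline arrays, -6.11, -6.80, and -6.47 after 2 hr of E2, and -6.44, -6.22, and -6.42 after 2 hr of E3. On it *Ptch1* decreased 8.35-fold after E2 and 7.79-fold after E3 (-3.06 ± 0.18 and -2.96 ± 0.18, adjusted p = 6.15e-08 and 1.59e-07). At 24 hr the decrease on it was 4.27-fold after E2 and 2.83-fold after E3 (-2.10 and -1.5). Without E2 2-hr replicate 2, the brighter probe gave -0.91 at 2 hr of E2 and lost its call, which it also lost without E2 2-hr replicate 3, saline replicate 1, or saline replicate 3. That call was also lost with no scaling (-1.12), quantile normalization (-1.07), normexp correction (-1.01), and a fit of only the groups compared (-1.21). With normexp correction the call at 24 hr of E3 was lost too (-0.90, adjusted p = 0.185). In the comparisons with saline as fitted here, *Ptch1* was lower on both probes, while its size at 2 hr of E2 was not shared.

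**Figure D3:**
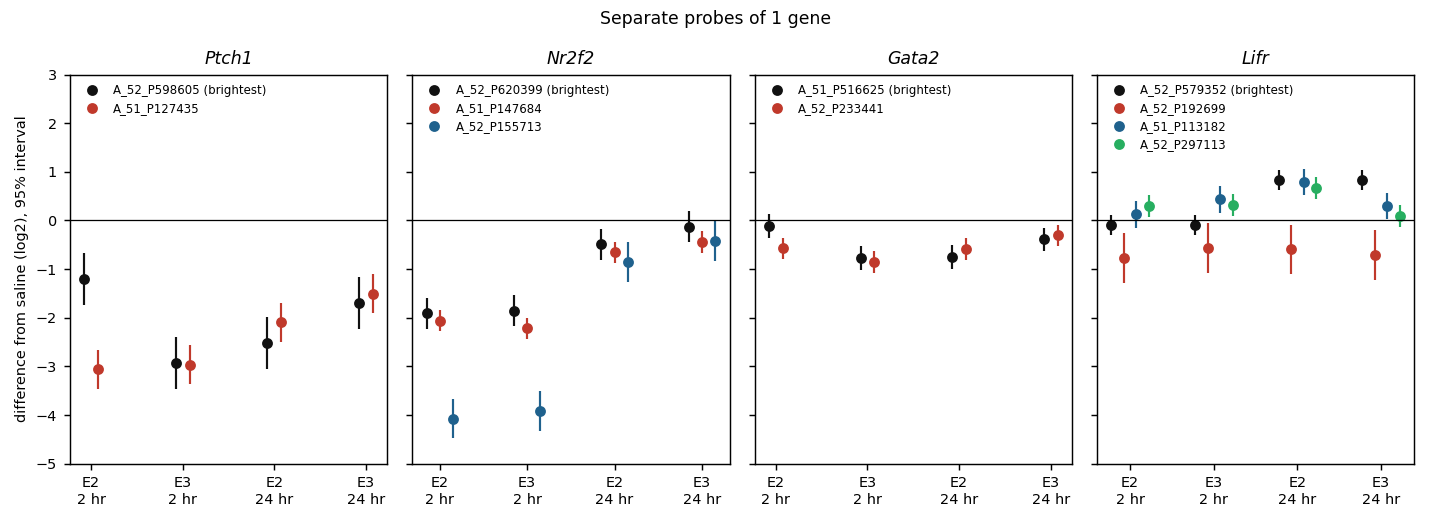
Difference from saline (log2, 95% interval, n = 3 arrays a group) for each probe of *Ptch1*, *Nr2f2*, *Gata2*, and *Lifr*, with the brightest probe in black. The *Ptch1* probes lie at -1.21 and -3.06 at 2 hr of E2 and close together elsewhere, 1 *Nr2f2* probe lies at -4.07 and -3.91 at 2 hr, and the 4 *Lifr* probes spread from -0.71 to 0.84 at 24 hr of E3.

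Promoter sequence is shown for the hedgehog pair and the stromal pair, the 4 genes called at 2 hr of E3. The 250 bases before the RefSeq start of each gene (GRCm38.p6) are printed 5′ to 3′ on the strand of the gene, with capitals at GGGCGG, the GC box bound by Sp1, on either strand.
Ihh, chr1:74951673-74951922, minus strand: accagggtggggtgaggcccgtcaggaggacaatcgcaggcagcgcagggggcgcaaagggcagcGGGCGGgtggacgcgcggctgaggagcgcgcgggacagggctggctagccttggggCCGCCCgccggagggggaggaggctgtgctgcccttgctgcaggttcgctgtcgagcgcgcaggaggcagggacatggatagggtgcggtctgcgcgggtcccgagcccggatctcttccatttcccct
Ptch1, chr13:63565736-63565985, minus strand: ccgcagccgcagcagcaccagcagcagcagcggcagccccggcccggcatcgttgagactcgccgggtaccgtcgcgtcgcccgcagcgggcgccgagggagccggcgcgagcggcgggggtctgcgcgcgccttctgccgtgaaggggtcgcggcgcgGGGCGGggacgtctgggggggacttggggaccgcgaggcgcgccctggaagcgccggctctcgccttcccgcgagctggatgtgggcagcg
Nr2f2, chr7:70366747-70366996, minus strand: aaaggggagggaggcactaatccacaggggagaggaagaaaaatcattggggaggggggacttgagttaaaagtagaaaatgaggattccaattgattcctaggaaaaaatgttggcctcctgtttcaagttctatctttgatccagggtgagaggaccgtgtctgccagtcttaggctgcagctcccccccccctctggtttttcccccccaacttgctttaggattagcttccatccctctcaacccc
Hand2, chr8:57320733-57320982, plus strand: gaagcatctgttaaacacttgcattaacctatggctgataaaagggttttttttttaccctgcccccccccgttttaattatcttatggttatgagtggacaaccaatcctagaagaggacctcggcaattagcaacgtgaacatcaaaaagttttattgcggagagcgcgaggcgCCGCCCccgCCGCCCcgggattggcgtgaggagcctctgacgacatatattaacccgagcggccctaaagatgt

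The windows of *Ihh* and *Hand2* held 2 GC boxes each, that of *Ptch1* 1, and that of *Nr2f2* none. Of all 32851 promoter windows, 32.7% held a GC box. None of the 4 windows held GGTCA, the half-site of an estrogen response element, which 35.2% of all windows hold, nor the full palindromic estrogen response element (0.0639%), the AP-1 site TGANTCA (6.75%), or the GLI site GACCACCCA (0.225%). All were searched on both strands, and the half-site overlaps the palindrome. Over the 14 windows of the 10 genes, the half-site lay in 5 windows of 3 genes (*Msx1*, *Gata2*, *Lifr*). The AP-1 site lay in 1, that of *Lif*, 228 bases before its start. The GC box lay in 10 windows of 8 genes, among them *Msx2* and *Lifr*, which were not called against saline. A match describes letters and does not show a bound site.

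Of 14 further hedgehog pathway genes, 13 were tested (*Shh* did not pass the filter). At 2 hr of E2, 2 were higher and 3 lower, beside 21.2% of all tested probes called. At 2 hr of E3, 2 were higher and 2 lower, beside 13.8%. At 24 hr of E2, 1 was higher and 1 lower, beside 18.1%. At 24 hr of E3 none was called by limma (3 at an unadjusted p below 0.05), beside 3.81% of all probes. The count at 24 hr of E2 fell from 2 to 1 without the 4 arrays high in pancreas transcripts, and also without any 1 of the saline arrays or of E2 24-hr replicates 2 and 3. At 2 hr of E3 it fell from 4 to 2 without saline replicate 3. *Boc* and *Gas1*, coreceptors that help cells bind the ligand, decreased after both estrogens at 2 hr (-2.01 and -1.93 for *Boc*, -1.82 and -1.77 for *Gas1*). They were not called at 24 hr, at -0.55 to 0.05. *Disp1*, which releases the ligand, decreased at 2 hr of E2 (-1.08) and stood at -0.70 at 2 hr of E3.

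The genes of the list called higher at 2 hr were *Hhat* and *Dhh*. *Hhat*, the acyltransferase that lipidates hedgehog ligands, increased 5.03-fold after E2 and 2.03-fold after E3 (2.33 and 1.02), and *Dhh*, the desert hedgehog ligand, increased 3.48-fold and 2.05-fold (1.80 and 1.03). *Gli1*, a transcription factor and a target gene of the pathway, measured -1.51, -1.72, and -1.43 on the saline arrays and -2.91, -2.73, and -2.68 after 24 hr of E2, a 2.33-fold decrease (-1.22, adjusted p = 6.42e-05). After 24 hr of E3 it was at -0.99, just short of 2-fold. *Hhip*, a decoy receptor that is also a target, increased 2.73-fold at 24 hr of E2 (1.45 ± 0.30, adjusted p = 0.00132), against the direction of *Ptch1* and *Gli1*. The other tested genes of the list, among them *Smo*, *Gli2*, *Gli3*, and *Sufu*, were not called against saline. The list's median was -0.22, -0.41, -0.08, and 0.05 at 2 hr of E2, 2 hr of E3, 24 hr of E2, and 24 hr of E3.

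**Figure D4:**
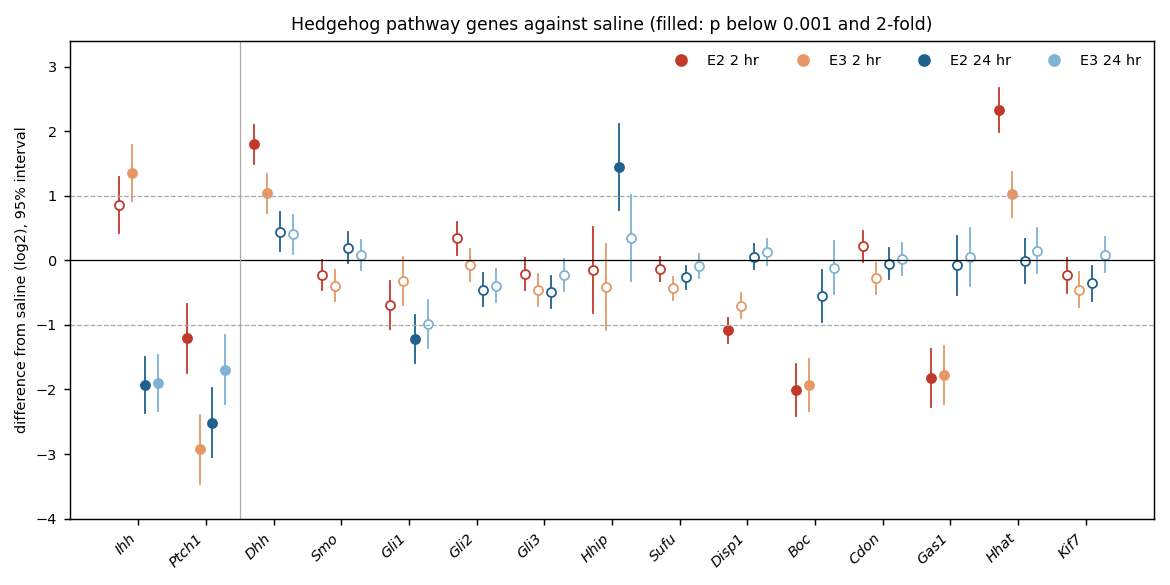
Difference from saline (log2, 95% interval, n = 3 arrays a group) of *Ihh* and *Ptch1*, left of the line, and of 13 other tested genes of the hedgehog pathway. Filled points are called. *Ptch1* lies below -1 in all 4 comparisons, and *Boc* and *Gas1* lie below -1.7 at 2 hr and between -0.55 and 0.05 at 24 hr.

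*Nr2f2*, the stromal nuclear receptor downstream of hedgehog, dropped at 2 hr and was closer to the saline level at 24 hr. It measured 4.03, 3.8, and 3.96 on the saline arrays, 2.37, 1.89, and 1.81 after 2 hr of E2, 2.27, 1.94, and 2.02 after 2 hr of E3, 3.57, 3.32, and 3.45 after 24 hr of E2, and 3.64, 3.88, and 3.88 after 24 hr of E3. The 2-hr arrays of both estrogens overlapped each other and lay below all others. *Nr2f2* decreased 3.75-fold after 2 hr of E2 (-1.91 ± 0.15, adjusted p = 4.21e-07) and 3.61-fold after 2 hr of E3 (-1.85 ± 0.15, adjusted p = 1.04e-06). At 24 hr the differences from saline were -0.49 (95% interval -0.81 to -0.17) after E2 and -0.13 (-0.45 to 0.19) after E3. Between 2 and 24 hr it increased 2.67-fold under E2 and 3.30-fold under E3. The median difference of 7 stromal markers from saline was -0.64 and -0.57 at 2 hr of E2 and E3 and 0.49 and 0.64 at 24 hr. At 2 hr, 6 of the 7 markers were below saline after E2 and 7 after E3. The markers differed from saline both ways at 24 hr, with 3 of 7 below it and 4 above it after each estrogen. Of the 7, 1 was called lower at 2 hr of E2, none at 2 hr of E3, and 1 higher at 24 hr of each. Their sums were 213 to 264 on the saline arrays, 197 to 226 and 171 to 200 at 2 hr of E2 and E3, and 284 to 308 and 311 to 347 at 24 hr, and their part in the *Nr2f2* and *Hand2* differences was not tested. On its brightest probe, *Nr2f2* was lowest at E2 2 hr and E3 2 hr, then E2 24 hr, then E3 24 hr and saline, which overlapped.

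The other 2 *Nr2f2* probes gave the same calls against saline. One, at chr7:66221467-66221526, fell farther. It measured 1.2, 1.09, and 1.36 on the saline arrays, -2.37, -3.11, and -3.08 after 2 hr of E2, and -2.65, -2.57, and -2.87 after 2 hr of E3, a 16.8-fold and a 15.1-fold decrease (-4.07 ± 0.19 and -3.91 ± 0.19). At 24 hr it stood at -0.85 and -0.42 against saline after E2 and E3. On all 3 probes every E2 24-hr array was below every saline array, at less than 2-fold. The remaining probe, at chr7:66210289-66210348, decreased 4.17-fold and 4.65-fold at 2 hr of E2 and E3. By 24 hr it stood at -0.65 and -0.44 against saline (adjusted p = 0.000137 and 0.00562 by limma). On these 2 probes, but not on the brightest, every E3 24-hr array was also below every saline array.

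*Hand2*, the stromal transcription factor that holds back growth factor signals, was read by 2 probes that share 23 bases, shown in capitals, so they are not independent readings.
A_52_P420479: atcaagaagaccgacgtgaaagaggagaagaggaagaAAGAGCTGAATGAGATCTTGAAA
A_51_P147850: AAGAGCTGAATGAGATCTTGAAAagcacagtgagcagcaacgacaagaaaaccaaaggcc
The second of these is the brighter. It measured -1.31, -1.44, and -1.21 on the saline arrays, -2.34, -2.08, and -2.46 after 2 hr of E2, -2.53, -2.88, and -3.14 after 2 hr of E3, -1.77, -1.51, and -1.82 after 24 hr of E2, and -1.49, -1.67, and -1.54 after 24 hr of E3. Every treated array was below every saline array, and the 2-hr arrays were the lowest. *Hand2* decreased 2.89-fold after 2 hr of E3 (-1.53 ± 0.15, adjusted p = 5.52e-06). After 2 hr of E2 the difference was -0.97 ± 0.15 (1.96-fold, adjusted p = 0.000129), just short of 2-fold, and on the dimmer probe it was -1.04 and called. At 24 hr it was -0.38 (95% interval -0.71 to -0.05) after E2 and -0.25 (-0.58 to 0.08) after E3. The groups ran E3 2 hr, E2 2 hr, E2 24 hr, E3 24 hr, and saline, and only the 2 groups at 24 hr overlapped.

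*Hand2* is known to restrain fibroblast growth factors of the stroma. Among 10 of these factors and their receptors, 1 was called higher and 2 lower at 2 hr of E2. At 2 hr of E3, 2 were called lower. Beside these counts, 21.2% and 13.8% of all tested probes were called. *Fgf18*, a stromal ligand, decreased 2.94-fold and 3.49-fold (-1.55 and -1.80), *Fgf7* decreased after E2 (-1.81, and -1.20 after E3, not called), and *Fgf10* decreased after E3 (-1.24, and -0.98 after E2, not called). *Fgfr3* increased after E2 (1.37). At 24 hr of E2, the receptor *Fgfr2* decreased 2.80-fold (-1.49) and *Fgfr4* increased (1.28). At 24 hr of E3 none of the 10 was called by limma, and 3 had an unadjusted p below 0.05. The shares of all tested probes called at 24 hr were 18.1% after E2 and 3.81% after E3. *Fgf9* and *Fgf2* were not called against saline. Leaving out the 4 arrays high in pancreas transcripts, 1 gene in place of 2 was called at 2 hr of E3 and 1 in place of 2 at 24 hr of E2.

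*Msx1*, the homeobox gene expressed in the uterus before implantation, measured 2.96, 2.88, and 2.91 on the saline arrays, 1.67, 2.07, and 1.58 after 2 hr of E2, 1.90, 2.32, and 1.91 after 2 hr of E3, 2.47, 2.67, and 2.27 after 24 hr of E2, and 2.97, 2.62, and 2.5 after 24 hr of E3. The 2-hr arrays and the E2 24-hr arrays were below all saline arrays, and 1 E3 24-hr array was above them. *Msx1* decreased 2.21-fold at 2 hr of E2 (-1.14 ± 0.17, adjusted p = 7.7e-05). At 2 hr of E3 it stood at -0.87 ± 0.17 (1.83-fold, adjusted p = 0.000918), short of 2-fold. The dimmer *Msx1* probe, at chr5:36902399-36902456, gave -0.75 and -0.85, called in neither. At 24 hr the differences were -0.45 (95% interval -0.81 to -0.08) after E2 and -0.22 (-0.58 to 0.15) after E3. All neighbours in the order E2 2 hr, E3 2 hr, E2 24 hr, E3 24 hr, saline overlapped.

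*Msx2*, the related homeobox gene, was called in no comparison with saline. It measured -0.23, -0.14, and -0.34 on the saline arrays, and the 6 arrays at 2 hr lay between -0.30 and 0.04. After 24 hr of E2 it measured 0.48, 0.33, and 0.45, all above the saline arrays, and after 24 hr of E3 0.46, 0.17, and -0.18, which overlapped them. The differences at 2 hr were 0.14 (95% interval -0.17 to 0.44) after E2 and 0.09 (-0.22 to 0.40) after E3. At 24 hr they were 0.66 ± 0.14 after E2 (1.58-fold, adjusted p = 0.00156) and 0.39 ± 0.14 after E3 (1.31-fold, adjusted p = 0.0531), neither called.

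*Gata2*, a transcription factor of the progesterone pathway, measured 3.62, 3.41, and 3.55 on the saline arrays, 3.60, 3.28, and 3.36 after 2 hr of E2, 2.97, 2.76, and 2.55 after 2 hr of E3, 2.77, 2.77, and 2.80 after 24 hr of E2, and 3.12, 3.20, and 3.1 after 24 hr of E3. The E2 2-hr arrays overlapped saline and the other treated arrays lay below it. No difference from saline was called. They were -0.12 (95% interval -0.36 to 0.13) and -0.77 ± 0.11 at 2 hr of E2 and E3, and -0.75 ± 0.11 and -0.39 ± 0.11 at 24 hr (adjusted p = 0.387, 0.000109, 1e-04, and 0.0177). On a dimmer probe at chr6:88281461-88281520, 2 hr of E2 gave -0.57 ± 0.10 and the other 3 comparisons -0.86, -0.59, and -0.31. The probes therefore differed most, as for *Ptch1*, on the E2 2-hr arrays.

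Of 20 progesterone response and receptivity genes, 5 were higher and 5 lower at 2 hr of E2. After 2 hr of E3, 4 were higher and 5 lower. By 24 hr, 3 were higher and 3 lower after E2, and 1 was higher after E3. In the same order, 21.2%, 13.8%, 18.1%, and 3.81% of all tested probes were called. At 24 hr of E2, 3 in place of 6 were called without the 4 arrays high in pancreas transcripts. *Pgr*, the progesterone receptor, measured -1.91, -2.17, and -1.92 on the saline arrays and increased 5.44-fold and 4.33-fold at 2 hr of E2 and E3 (2.44 and 2.12). It was still 2.14-fold higher at 24 hr of E2 and not called at 24 hr of E3 (0.10). *Hbegf*, a ligand of the EGF receptor, increased at 2 hr (3.00 and 2.77), as did *Wnt4* (2.70 and 3.1) and the kinase gene *Sgk1* (2.31 and 2.43). *Hoxa10* and *Hoxa11*, needed for stromal decidualization, decreased at 2 hr (-1.35 and -1.90 for *Hoxa10*, -1.15 and -1.72 for *Hoxa11*), and so did *Bmp2* (-1.24 and -1.92). *Muc1*, a surface mucin that keeps the epithelium from binding an embryo, increased 8.32-fold and 3.62-fold at 24 hr (3.06 and 1.86). Summed epithelial markers were 171 to 183 on the E2 24-hr arrays, 125 to 134 on the E3 24-hr arrays, and 74.1 to 100 on the saline arrays, and their part in these differences was not tested.

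*Lifr*, the receptor subunit that binds LIF, was higher at 24 hr on its brightest probe. It measured -1.97, -2.26, and -2.10 on the saline arrays, -2.18, -2.28, and -2.16 after 2 hr of E2, -2.25, -2.11, and -2.23 after 2 hr of E3, -1.20, -1.21, and -1.41 after 24 hr of E2, and -1.18, -1.36, and -1.26 after 24 hr of E3. The 6 arrays at 24 hr of estrogen lay above all others and overlapped each other. The differences from saline were 0.83 ± 0.09 after E2 and 0.84 ± 0.09 after E3 (1.78-fold and 1.79-fold, adjusted p = 1.19e-05 and 0.000135), short of 2-fold. At 2 hr they were -0.10 (95% interval -0.30 to 0.11) and -0.09 (-0.29 to 0.11).

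The 4 *Lifr* probes did not give 1 picture. Neighbouring probes at chr15:7017960-7018019 and chr15:7017869-7017928 gave 0.80 and 0.67 at 24 hr of E2, near the brightest probe, but 0.30 and 0.09 at 24 hr of E3. On these, E3 minus E2 at 24 hr was -0.49 and -0.58 (95% intervals -0.76 to -0.22 and -0.81 to -0.36, neither called), against 0.00 (-0.20 to 0.21) on the brightest probe. The fourth probe, at chr15:7012421-7012480, stood below saline in all 4 comparisons (-0.78, -0.57, -0.60, and -0.71, none called). Its highest array was saline replicate 1 at -4.19, the array with the highest sum of liver transcripts, where the other saline arrays measured -5.0 and -4.80. The part of that tissue in these values was not tested.

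Of 15 genes of LIF and gp130 cytokine signaling, 2 were higher and 1 lower at 2 hr of E2. After 2 hr of E3, 2 were higher. By 24 hr of E2, 1 was higher and 2 lower. None was called by limma at 24 hr of E3 (3 at an unadjusted p below 0.05). In the same order, 21.2%, 13.8%, 18.1%, and 3.81% of all tested probes were called. *Socs3*, an inhibitor that STAT3 induces, measured 1.90, 2.27, and 1.78 on the saline arrays, 5.28, 5.74, and 5.59 after 2 hr of E2, and 5.22, 5.23, and 5.11 after 2 hr of E3, an 11.7-fold and a 9.20-fold increase (3.55 and 3.20). At 24 hr it was at -0.09 and -0.10 against saline. *Il11*, a cytokine of the same family, increased 36.8-fold after E2 and 8.47-fold after E3 (5.20 and 3.08, adjusted p = 3.86e-09 and 2.55e-07), and was 2.32-fold higher at 24 hr of E2. *Il6ra* decreased at 2 hr of E2 (-1.08), and *Cntfr* and *Clcf1* decreased at 24 hr of E2 (-1.04 and -1.37). At 24 hr of E2, 1 in place of 3 was called without the 4 arrays high in pancreas transcripts. The shared receptor subunit *Il6st* and the kinases *Jak1* and *Jak2* were not called against saline.

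*Foxa2*, the gland transcription factor, measured 2.12, 2.07, and 1.75 on the saline arrays, 0.53, 1.68, and 0.68 after 2 hr of E2, 1.15, 1.19, and 0.91 after 2 hr of E3, 1.11, 1.02, and 1.10 after 24 hr of E2, and 1.29, 1.51, and 1.01 after 24 hr of E3. Every treated array was below every saline array, and the treated groups overlapped each other. No difference was called, at -1.02 ± 0.25, -0.90 ± 0.25, -0.91 ± 0.25, and -0.71 ± 0.25 in that order (adjusted p = 0.00323, 0.00927, 0.00682, and 0.043). E2 2-hr replicate 2 lay apart from the others of its group, and without it the difference at 2 hr of E2 was -1.38 (adjusted p = 2.29e-05) and called. Liver also expresses *Foxa2*, and the saline arrays were highest both in *Foxa2* and in the 14 liver transcripts, of which albumin (*Alb*) measured 3.38, 1.90, and 1.54 there. On the E3 2-hr arrays *Alb* measured 0.60, 0.74, and -0.53, and on the E2 24-hr arrays -2.93, -3.28, and -3.49. The *Foxa2* values of these groups overlapped. The part of liver RNA in the *Foxa2* differences was not tested.

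**Figure D5:**
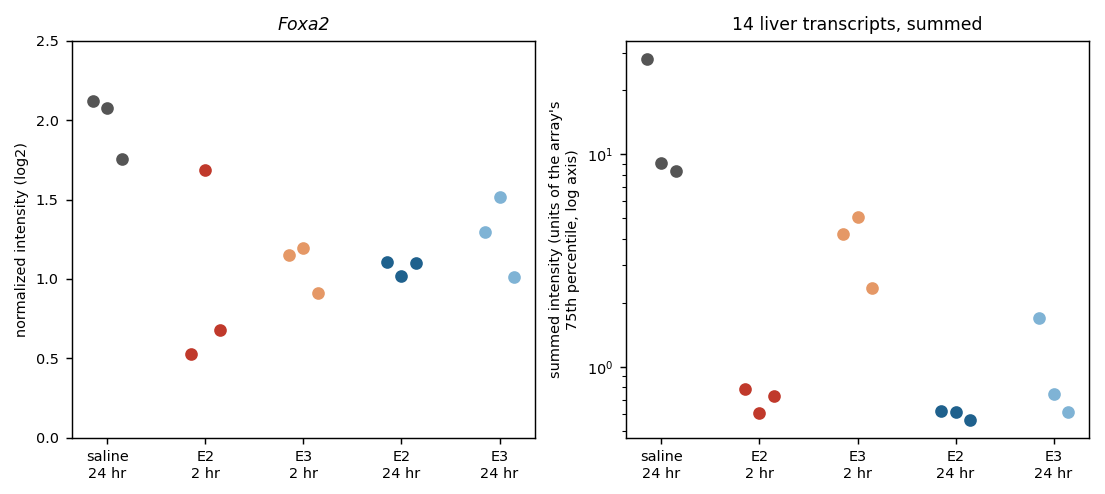
Normalized intensity (log2) of *Foxa2* on each of the 15 arrays, left, and the summed intensity of 14 liver transcripts on the same arrays relative to the 75th percentile (log axis), right. The 3 saline arrays are highest in both, at 1.75 to 2.12 in *Foxa2* and 8.37 to 28.1 in the liver sum.

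Of 9 uterine gland genes, 8 had a probe and 7 were tested. The shares of all tested probes called were 21.2% and 13.8% at 2 hr of E2 and E3, and 18.1% and 3.81% at 24 hr. *Sox9* increased 6.92-fold and 5.77-fold at 2 hr of E2 and E3 (2.79 and 2.53), and *Wnt7b* increased at 2 hr (1.63 and 1.81). *Ttr*, which is also an abundant liver transcript, was called lower at 2 hr of E2, where it was not well above background and at least 6.64-fold lower, and at 24 hr of E2 (-2.96). *Aldh1a1* decreased at 24 hr of E2 (-1.22). None of the 7 was called by limma at 24 hr of E3 (3 at an unadjusted p below 0.05), and *Cxcl15*, *Prss29*, and *Calca* were not called against saline. Without the 4 arrays high in pancreas transcripts, 1 gene in place of 2 was called at 2 hr of E3 and 1 in place of 2 at 24 hr of E2. At 2 hr of E3 it was also 1 without E3 2-hr replicate 2, E3 2-hr replicate 3, or saline replicate 3.

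E3 and E2 were compared directly at each time. At 2 hr they also differed in strain, scanner, and scan day, which cannot be told apart from the compound. At 2 hr, 1 of the 9 genes was called, where 7.37% of all tested probes were called (1.54% higher and 5.83% lower after E3). At an adjusted p below 0.05 of any size, 3 of the 9 passed (43.3% of all probes), and the arrays did not overlap for 4 (50.8%). The called gene was *Ptch1*, 3.30-fold lower after E3 than after E2 (-1.72 ± 0.25, adjusted p = 0.000183). That call did not hold on the dimmer *Ptch1* probe, on which E3 minus E2 was 0.10 (95% interval -0.30 to 0.50). It was lost as well without the 4 arrays high in pancreas transcripts (-1.57, adjusted p = 0.031), with normexp correction (-1.34), and in a fit of only the groups compared. The remaining differences of E3 minus E2 at 2 hr were 0.50 (0.06 to 0.94) for *Ihh*, 0.05 (-0.27 to 0.37) for *Nr2f2*, -0.56 (-0.89 to -0.23) for *Hand2*, 0.27 (-0.09 to 0.64) for *Msx1*, -0.04 (-0.35 to 0.26) for *Msx2*, -0.65 (-0.90 to -0.41) for *Gata2*, 0.01 (-0.19 to 0.21) for *Lifr*, and 0.12 (-0.42 to 0.66) for *Foxa2*, with 95% intervals. On these probes the intervals of all 8 exclude a difference of 2-fold, and those of *Ihh*, *Hand2*, and *Gata2* exclude 0. Without the 4 arrays high in pancreas transcripts, *Hand2* stood at -0.24 (adjusted p = 0.37), *Gata2* at -0.45 (adjusted p = 0.0705), and *Ihh* at 0.56 (adjusted p = 0.216) by limma, and 1 gene in place of 3 passed an adjusted p below 0.05.

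At 24 hr none of the 9 genes was called between E3 and E2 by limma, where 4.85% of all tested probes were called (2.77% higher and 2.07% lower after E3). At an adjusted p below 0.05 of any size 2 passed (36.5% of all probes), and the arrays did not overlap for 3 (51.3%). At an unadjusted p below 0.05, 3 of the 9 passed (*Ptch1*, *Nr2f2*, and *Gata2*). The differences of E3 minus E2 were 0.03 (95% interval -0.40 to 0.47) for *Ihh*, 0.82 (0.29 to 1.35) for *Ptch1*, 0.36 (0.04 to 0.68) for *Nr2f2*, 0.13 (-0.20 to 0.46) for *Hand2*, 0.23 (-0.14 to 0.59) for *Msx1*, -0.27 (-0.58 to 0.04) for *Msx2*, 0.36 (0.12 to 0.60) for *Gata2*, 0.00 (-0.20 to 0.21) for *Lifr*, and 0.20 (-0.34 to 0.74) for *Foxa2*. On the dimmer *Ptch1* probe E3 minus E2 was 0.59 (0.20 to 0.99). Among the listed genes, *Muc1* was lower after E3 by 2.30-fold, *Fkbp4*, a cochaperone of the progesterone receptor, was lower (-1.23), and so was *Fgfr4* (-1.10). Without the 4 arrays high in pancreas transcripts, 1 of the 2 progesterone genes was called, *Fgfr4* was not, and 0 of the 9 genes in place of 2 passed an adjusted p below 0.05 by limma (1 at an unadjusted p below 0.05).

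From 2 to 24 hr, 3 genes were called under E2, with *Nr2f2* higher and *Ihh* and *Ptch1* lower, where 31.1% of all tested probes were called (13.9% higher, 17.2% lower). Under E3, 4 were called, with *Nr2f2*, *Hand2*, and *Ptch1* higher and *Ihh* lower, where 16.1% were called (9.66% higher, 6.47% lower). At an adjusted p below 0.05 of any size, 8 of the 9 genes passed under E2 and 7 under E3, beside 69.9% and 55.3% of all probes. The arrays of the times did not overlap for 8 and 7 genes, beside 72.9% and 62.1%. Under E2, *Gata2* and *Msx1* passed on their brightest probes (-0.63 and 0.70). On their dimmer probes they did not (-0.02 and 0.19, adjusted p = 0.897 and 0.365 by limma), and the arrays overlapped. *Hand2* rose 2.44-fold under E3 (1.28 ± 0.15), and under E2 the difference was 0.59 ± 0.15. *Ptch1* went from -3.37 to -4.67 in group mean under E2 and from -5.09 to -3.85 under E3. On its dimmer probe the means went from -6.46 to -5.49 under E2, the opposite direction, and from -6.36 to -4.90 under E3. The change of the E3 minus E2 difference from 2 to 24 hr was called for 2 of the 9 genes, *Ptch1* and *Gata2*, beside 15.5% of all probes (11.1% higher, 4.39% lower), and 3 passed an adjusted p below 0.05 (46.1% of all probes). On its brightest probe *Lifr* differed by 0.93 under both, short of 2-fold. Its other 3 probes gave 0.67, 0.38, and 0.18 under E2 and -0.13, -0.22, and -0.15 under E3, none called.

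Without the 4 arrays high in pancreas transcripts, 3 genes were still called between times under E2, but *Ptch1* (-1.41, adjusted p = 0.0171) was lost and *Lifr* (1.01, adjusted p = 0.000458) passed, with the spread of the lone E2 24-hr array taken from the other groups. Under E3, 2 were called, and *Hand2* at 0.96 and *Ptch1* at 1.08 were lost, on a lone E3 2-hr array. The *Ptch1* call under E3 was also lost without E3 24-hr replicate 1 (1.16), E3 24-hr replicate 2 (1.2), or E3 2-hr replicate 2 (1.13), with no scaling (1.16), and with normexp correction (1.45). Under E2 it was lost without E2 24-hr replicate 1 (-1.25) or E2 2-hr replicate 1 (-0.96), with normexp correction (-1.0), and in a fit of only the groups compared (-1.30). For the change of the E3 minus E2 difference with time, without the 4 arrays 0 in place of 2 were called by limma, and *Ptch1* stood at 2.49 (adjusted p = 0.0185).

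Among the genes most like each member over the 15 arrays, by Pearson's r of normalized values among 14037 named genes, were *Otud4* and *Taf7* for *Ihh* (r = 0.976 and 0.974), *Dnm3os* and *Bmf* for *Nr2f2* (0.993 and 0.990), *9230110I02Rik* and *Ucn2* for *Hand2* (0.970 and 0.963), *Hoxb3* and *Gnb4* for *Msx1* (0.959 and 0.949), and *AU022855* for *Gata2* (0.962). For *Ptch1* they were *LOC669983* and *LOC237412* (0.969 and 0.968), for *Msx2* *Fdps* and *2510006C20Rik* (0.900 and 0.898), for *Lifr* *Cndp2* and *Il1f8* (0.980 and 0.978), and for *Foxa2* *4833424O15Rik* and *Nr1h4* (0.901 and 0.866). *Nr1h4* encodes the bile acid receptor of liver. These are descriptions over arrays that share groups, slides, and depth.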

How the data were processed

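Uterine RNA was hybridized to 1-color Agilent arrays of 45018 spots, 3 arrays in each of 5 groups. The authors deposited the scanner output of Agilent Feature Extraction 9.5 as background-subtracted, processed intensity, and a series table of the same intensity, which was used as an alternative. Per array, control spots and spots flagged as outliers were dropped (1893 flags), log2 of intensity was taken relative to the 75th percentile of 43379 spots, and spots of 1 probe were averaged. A probe was kept where some group had it well above background on 2 or more of its arrays (34760 of 41174, of which 34751 could be fitted). Group means were fitted across all probes in limma 3.58.1 (R 4.3.3) with 9 comparisons, moderated tests, and Benjamini-Hochberg adjustment over all tested probes. Files were read by the R package data.table (1.17.8) and plots made by matplotlib (3.10.9) under Python 3.11.15. A call took p below 0.001 and a 2-fold or larger change, the limits the study set for its clusters, but on limma's p-value in place of that of Rosetta Resolver. The fit was tested on simulated data. The number of arrays limits the precision.

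Each gene was represented by its brightest tested probe. For pathway lists, at most the 6 genes with the largest called change in a comparison were named by rule, and others named were chosen after their values were seen. The members and lists were chosen with earlier results of these data known. Bounds against a group not well above background set that group's arrays at the higher of the dim probe's value and the lowest value well above background. Replicate numbers did not pair the samples, so no block was used in the main comparisons. Alternatives covered the background correction, scaling, filter, thresholds, slide, replicate block, probe choice, and leaving out each array. Promoter windows were RefSeq sequences on GRCm38.p6, probe positions were those of the array annotation on mm7, and the builds were not mixed. Some genes that met these rules are not reported here, and the list counts leave them out.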

Additional observations from a re-analysis of the deposited data

Results flagged for a closer look

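The difference between E3 and E2 changed from 2 to 24 hr for *Ptch1* and *Gata2*, each by a test of that change in limma. For *Ptch1* the E3 minus E2 difference was -1.72 at 2 hr and 0.82 at 24 hr, a change of 2.54 ± 0.35 (SE, adjusted p = 0.000131). For *Gata2* it was -0.65 and 0.36, a change of 1.01 ± 0.16 (adjusted p = 0.000306). Of all tested probes, 15.5% were called in this comparison. Neither call held on the other probe of the same gene, where the change was 0.49 (95% interval -0.07 to 1.05) for *Ptch1* and 0.57 (0.26 to 0.88) for *Gata2*. The E2 2-hr group enters both changes, and its strain, scanner, and treatment cannot be told apart. Without the 4 arrays high in pancreas transcripts, the changes were 2.49 (adjusted p = 0.0185) and 0.81, neither called.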

How the results depend on the processing

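Over 34 alternative settings, 1800 values were recomputed for the 9 genes, of which 1638 kept their sign and call, 41 lost a call, and 53 gained one. Sign changed in 68, of which 66 were called under neither setting. The other 2, among the 41, were *Ptch1* on its dimmer probe, at 0.10 for E3 against E2 at 2 hr and 0.97 for E2 at 24 against 2 hr. Among those not called, *Lifr* stood at -0.60 and -0.71 against saline at 24 hr of E2 and E3 on its dimmest probe, and at -0.13 to -0.22 between times under E3 on its other 3. Within the slide shared by E3 2 hr and saline replicate 3, *Ihh* stood at 1.63 and *Foxa2* at -0.67, and counts have no test there.

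With an adjusted p below 0.05 and no minimum change, the genes called were 6 (E2 2 hr), 7 (E3 2 hr), 9 (E2 24 hr), and 5 (E3 24 hr) against saline, 3 and 2 between E3 and E2 at 2 and 24 hr, and 8 and 7 between times under E2 and E3. With p below 0.001 and no minimum change they were 5 at 24 hr of E2, 2 between E3 and E2 at 2 hr, and 5 between times under E2. The share of all probes that met this rule was not counted. The 75th percentile over probes detected on all arrays gave 5 at 2 hr of E2. Normexp correction gave 1 at 24 hr of E2 and 0 at 24 hr of E3, between E3 and E2 at 2 hr, and for the change of that difference with time. E3 against E2 at 2 hr also had 0 with only the groups compared, with the dimmer probe, and without the 4 arrays high in pancreas transcripts, a setting chosen after seeing the data. Without those arrays 2 were called between times under E3 and 0 for the change with time, which had 0 with the dimmer probe and 1 with quantile normalization. The cause of these losses was not tested.

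Leaving out 1 array at a time gave 2 to 4 (E2 2 hr), 4 to 5 (E3 2 hr), 2 (E2 24 hr), and 2 (E3 24 hr) against saline, 1 and 0 between E3 and E2, 2 to 4 and 3 to 4 between times under E2 and E3, and 1 to 2 for the change with time, where *Gata2* was lost without E2 2-hr replicate 1, E3 24-hr replicate 2, or E3 2-hr replicate 3. With a replicate block, 4 genes were called at 2 hr of E2 in place of 3, since *Foxa2* (-1.02) then passed, and no other gene's call changed. Deviations of same-numbered arrays correlated above 0.1 in 9 of 30 pairs, and those of differently numbered arrays in 17 of 60. No filter, a minimum mean signal, and the series table changed no call of the 9 genes. Neither did slide as a random block (correlation -0.0135), but 6 of 7 slides held 1 group, so slide and group cannot be told apart outside the slide of E3 2 hr and saline.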

Other observations

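No probe was named *Lif*, but the array description of 1 probe names a leukemia inhibitory factor cDNA. It was well above background on all 15 arrays. It measured -3.65, -4.15, and -4.17 on the saline arrays and -4.33 to -3.56 on the treated arrays, and was called in none of the 9 comparisons by limma. The difference from saline was -0.16 and -0.23 at 2 hr of E2 and E3 and 0.12 and 0.35 at 24 hr. This probe was chosen after the array's descriptions were searched, and its match to the *Lif* transcript was not checked.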
